A study of Mus musculus with 11 samples.

Results

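The miR-193 and miR-365 clusters are the subject here: 6 mature miRNA names of the 1907 in each deposited table, namely miR-193a-3p, miR-193a-5p, miR-193b-3p, miR-365-3p, miR-365-1-5p and miR-365-2-5p. The members were chosen by name, with their pMCAO and sham values already known, because miR-193 and miR-365 hairpins lie near each other at 2 loci and the question was whether neighbours move together. Their levels in the groups are therefore given as a description, with no p-value, and their calls in the fit over all names are shown only beside the share of all names called. Small RNA was sequenced from the brains of male Balb/cOlaHsd mice, aged 3 months per the labels (the study's methods give a wider range), 3 days after surgery. In the pMCAO group (5 libraries) the left middle cerebral artery was closed permanently with a thermocoagulator, a model of ischemic stroke without reperfusion. In the sham group (6 libraries) the artery was exposed but not closed. The labels describe the tissue as cortex in sham and peri-ischemic cortex in pMCAO, whereas the methods name peri-ischemic tissue for both, so region and surgery cannot be told apart where the labels hold. The deposited files are named as vehicle groups, while the labels name no agent.

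MicroRNAs are short RNAs cut from hairpin precursors, and the mature strand guides Argonaute proteins to messenger RNAs that pair with its seed, the bases 2 to 8 from its 5′ end. Hairpins that lie close together on the same strand are often made from a shared primary transcript, and the 5p and 3p arms of a hairpin are usually kept at unequal levels. The cluster of miR-193b and miR-365 is best known from brown fat, where it is enriched and has been tied to adipocyte differentiation, and miR-193 family members have been studied as regulators of cell growth.

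The mature sequences, from RefSeq for GRCm38.p6 (the build called mm10), are shown because they decide what a count can and cannot separate. Capitals mark the seed.
mmu-miR-193a-3p: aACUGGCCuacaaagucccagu
mmu-miR-193b-3p: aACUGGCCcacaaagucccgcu
mmu-miR-365-3p: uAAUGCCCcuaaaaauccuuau
mmu-miR-193a-5p: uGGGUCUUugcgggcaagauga
mmu-miR-365-1-5p: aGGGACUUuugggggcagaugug
mmu-miR-365-2-5p: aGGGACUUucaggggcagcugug
All 6 members were found in the sequence table. MiR-193a-3p and miR-193b-3p have the same seed, which no other mouse miRNA in the table has, and 19 of their 22 bases are identical. Counted from 1 at the 5′ end of miR-193a-3p, they differ at U9C, A20G and G21C. The shortest reads kept had 20 bases, so such a read from base 1 carries U9C and A20G but not G21C. The seed of miR-365-3p is shared with no other entry. The 2 miR-365 5p arms share a seed and 20 of 23 bases, and differ at U10C, G11A and A19C, counted from the 5′ end of miR-365-1-5p.

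The 4 hairpins are shown with both mature arms in capitals, to set the shared miR-365-3p arm beside the 5p arms that differ.
Mir193a: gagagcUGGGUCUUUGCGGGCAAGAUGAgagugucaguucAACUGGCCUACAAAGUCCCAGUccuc
Mir365-2: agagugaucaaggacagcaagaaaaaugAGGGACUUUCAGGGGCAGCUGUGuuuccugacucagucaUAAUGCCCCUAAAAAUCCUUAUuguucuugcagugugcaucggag
Mir193b: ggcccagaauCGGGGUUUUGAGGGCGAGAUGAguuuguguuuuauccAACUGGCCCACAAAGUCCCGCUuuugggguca
Mir365-1: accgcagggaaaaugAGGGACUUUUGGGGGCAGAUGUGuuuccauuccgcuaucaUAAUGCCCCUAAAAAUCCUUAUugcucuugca
Mir193a (ENSMUSG00000065395.1) lies at chr11:79711969-79712034 and Mir365-2 (ENSMUSG00000065489.1) at chr11:79726400-79726511, with 14365 bases between them. Neither overlaps another annotated gene in GENCODE M21, and the nearest protein-coding gene, Rab11fip4, ends 13946 bases before Mir193a on the same strand. Mir193b (ENSMUSG00000076972.2) lies at chr16:13449523-13449601 and Mir365-1 (ENSMUSG00000065449.1) at chr16:13453840-13453926, with 4238 bases between them. Both fall in introns of Gm15738, an antisense gene on the minus strand, and overlap none of its exons. All 4 hairpins are on the plus strand. The 22 bases of miR-365-3p are the same in Mir365-1 and Mir365-2 and the tables give it a single entry, so its reads from chromosome 11 and chromosome 16 cannot be told apart. The 5p arms do differ between these hairpins, and their counts are given below.

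**Figure D1:**
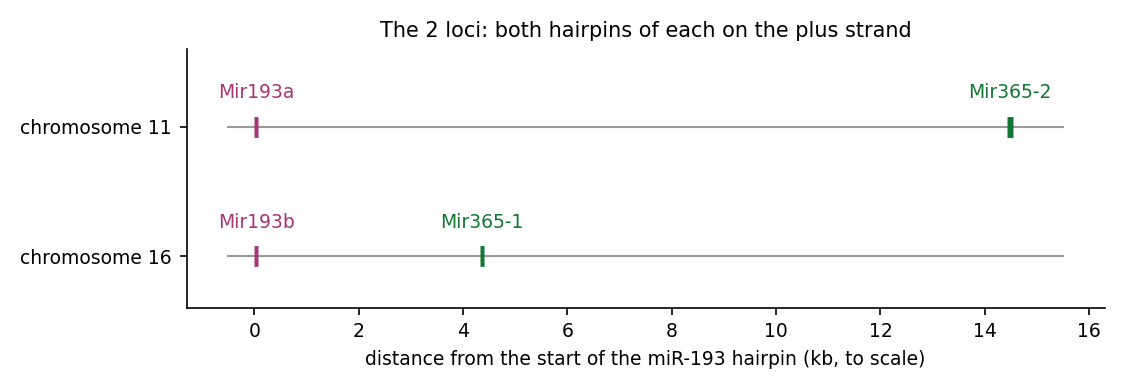
Map of the 2 loci on GRCm38.p6, with the distance from the start of the miR-193 hairpin in kb on the x axis and hairpins drawn to scale. The gap is 14365 bases between Mir193a and Mir365-2 and 4238 bases between Mir193b and Mir365-1.

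Library totals were 1429037 to 2319810 counts in sham and 744877 to 1411620 in pMCAO, and levels are given as CPM, counts scaled to library size with trimmed mean of M values (TMM) factors. A count of 3 was worth up to 2.19 CPM in sham and up to 3.55 CPM in pMCAO. Neuronal marker miRNAs summed to 288454 to 379611 CPM in sham and 231347 to 291433 in pMCAO, with none of the 4 at 0, so the label of brain tissue held. The 4 myeloid markers, led by miR-223-3p, summed to 322 to 788 CPM in sham and 853 to 3923 in pMCAO, highest in pMCAO replicate 2. The 3 erythrocyte markers ranged from 48.6 to 5332 CPM in sham, highest in sham replicate 1, and from 637 to 4700 in pMCAO. Sums in sham and pMCAO were 3575 to 4485 and 2111 to 3937 CPM for oligodendrocyte markers, 9192 to 13016 and 9518 to 13653 for endothelial markers, 6829 to 11479 and 6334 to 8695 for mural and fibroblast markers, and 396 to 649.6 and 312 to 480.3 for skeletal muscle markers. In the fit described below, 4 of 4 myeloid markers and 1 of 4 mural and fibroblast markers were called higher, 1 of 4 neuronal and 1 of 2 oligodendrocyte markers lower, and none of the others. The mural and fibroblast sum is mostly miR-145a-5p and miR-143-3p, with log2 fold changes of -0.22 and -0.04. The rarer miR-214-3p and miR-199a-3p of that list had 1.68 and 1.06. In bulk tissue fewer cells of a type and less RNA per cell cannot be told apart. The labels give each library its own replicate number but name no animal.

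In sham cortex the members spanned a wide range of levels. MiR-365-3p was the most abundant at 692 ± 159 CPM (SD, n = 6), the 119th highest mean of 1907 names, followed by miR-193b-3p at 339.5 ± 57.2 CPM (161st) and miR-193a-3p at 22.4 ± 5.30 CPM (377th). These 3 mature RNAs have the same length, 22 bases, so the order holds per length, and their ranges in sham did not overlap. Whether RNAs of different sequence entered the libraries equally well was not tested. The order, and the ratios and shares between RNAs given below, are therefore those of reads. In pMCAO the order of the means was no longer separated at the top: miR-193b-3p had 407 ± 192 CPM and miR-365-3p 400.0 ± 147 CPM (SD, n = 5), a difference smaller than either spread, with miR-193a-3p at 47.4 ± 23.4 CPM. Only these 3 of the 6 members passed the filter on low counts, which kept 479 names.

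MiR-193a-3p, the rarer of the paralogs with the shared seed, was higher in pMCAO. In sham its lowest, median and highest levels were 17.7, 20.95 and 32.0 CPM (25 to 54 counts). In pMCAO replicates 1 to 5 it stood at 41.6, 86.3, 45.6, 40.2 and 23.3 CPM (36 to 73 counts). Replicates 1 to 4 lay above every sham library, replicate 5 lay inside the sham range, and replicate 2 stood well above the other 4. The log2 fold change was 1.06 ± 0.29 (SE), or 2.08-fold. Poisson counting error alone would give a spread of 17.1% in sham and 14.5% in pMCAO at these counts, against observed spreads of 23.7% and 49.3% of the mean.

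MiR-193b-3p, which would pair with the same seed matches, had a smaller shift in its mean, and its spread was wider in pMCAO than in sham. The sham libraries ran from 269.5 to 405 CPM with a median of 339.6. The pMCAO libraries stood at 467, 689, 258, 203 and 418 CPM. Replicates 1, 2 and 5 were above every sham library and replicates 3 and 4 were below every sham library, so no pMCAO value fell inside the sham range and the group means differed little. The log2 fold change was 0.26 ± 0.25. The spread was 16.9% of the mean in sham and 47.1% in pMCAO, where counting error alone would give 4.35% and 5.00%. Whether the spread itself differed between groups was not tested.

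MiR-365-3p, the arm that both loci encode, was lower in pMCAO. Its lowest, median and highest sham levels were 529, 669 and 976 CPM (726 to 1583 counts). The pMCAO libraries stood at 618, 486, 291, 320.2 and 285 CPM (364 to 549 counts). Replicates 2 to 5 lay below every sham library, and replicate 1 lay inside the sham range but under its median. The log2 fold change was -0.79 ± 0.22, 1.73-fold lower, the 4th lowest of the 479 names tested. MiR-193a-3p stood at place 461 and miR-193b-3p at place 371 in the same order from the lowest.

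**Figure D2:**
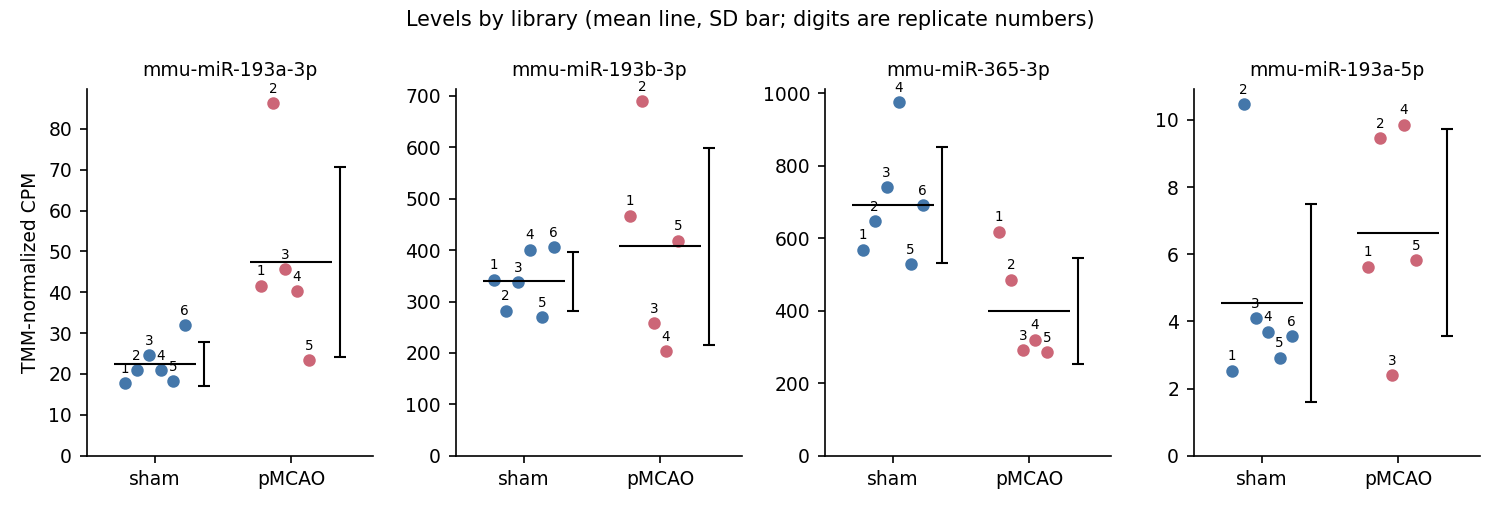
TMM-normalized CPM (y axis, linear from 0) of 4 members in each sham and pMCAO library, with the group mean as a line, the SD as a bar and replicate numbers beside the points. MiR-193a-3p was above every sham library in 4 of 5 pMCAO libraries, miR-365-3p below every sham library in 4 of 5, and miR-193b-3p on either side of the sham range.

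With edgeR's quasi-likelihood fit to all names and a Benjamini-Hochberg threshold of 0.05, miR-193a-3p was called higher, miR-365-3p lower and miR-193b-3p neither. Over all names 34 of 479 were called, 7.10%, of which 21 were higher (4.38%) and 13 lower (2.71%). Since the members were proposed with this contrast known, nothing is read from their count of 2. None of the 3 had CPM values that did not overlap between groups, as 7.52% of the names tested had. The directions held in every alternative tried, whereas the calls did not. With all libraries kept, the miR-365-3p call was lost with total counts alone (-0.62) and with at least 10 counts in every library (-0.75), and with the replicate number as a block, which leaves out sham replicate 6, it was lost too (-0.83). MiR-193a-3p was called in these 3 fits. Left-out libraries gave 0.77 to 1.24 for miR-193a-3p, and its call held only without sham replicate 6 (1.19), pMCAO replicate 4 (1.12) or pMCAO replicate 5 (1.24). It was lost without sham replicates 1, 2, 3, 4 and 5 (1.00, 1.05, 1.09, 1.04 and 1.01) and without pMCAO replicates 1, 2 and 3 (1.09, 0.77 and 1.06). MiR-365-3p ranged from -1.01 to -0.67, and its call held only without sham replicate 1 (-0.83), sham replicate 5 (-0.85) or pMCAO replicate 1 (-1.01). It was lost without sham replicates 2, 3, 4 and 6 (-0.80, -0.76, -0.67 and -0.79) and without pMCAO replicates 2, 3, 4 and 5 (-0.84, -0.70, -0.71 and -0.68). MiR-193b-3p was called in no fit and ranged from 0.02, without pMCAO replicate 2, to 0.44, without pMCAO replicate 4. PMCAO replicate 2, the library with the highest miR-193a-3p and miR-193b-3p, also had the highest sum of myeloid markers, whose part in these levels was not tested.

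**Figure D3:**
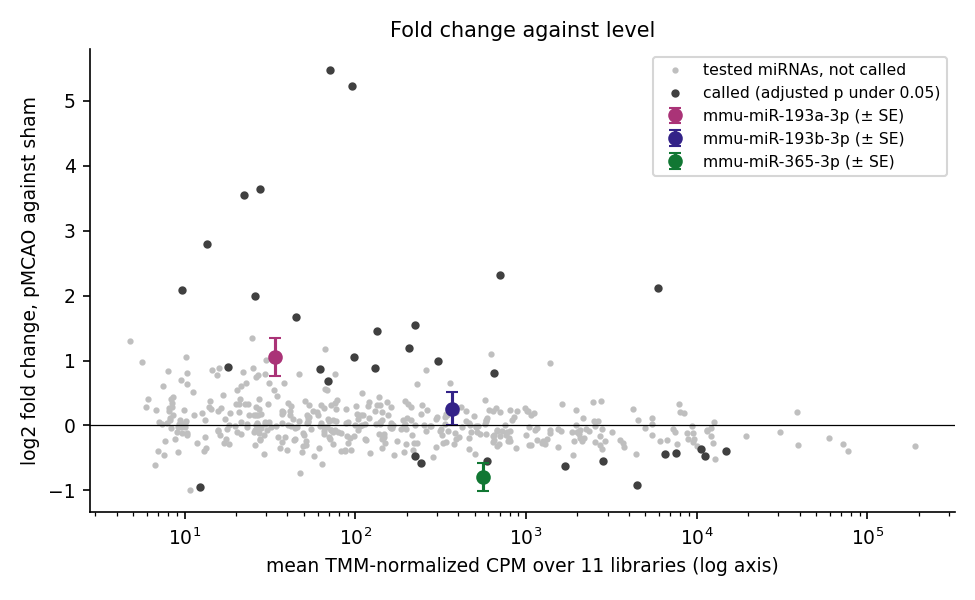
Log2 fold change of pMCAO against sham (y axis) against mean TMM-normalized CPM over 11 libraries (x axis, log scale) for the 479 tested names, with called names dark and 3 members coloured with their SE. MiR-193a-3p lies at 1.06, miR-193b-3p at 0.26 and miR-365-3p at -0.79.

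A ratio of 2 members within a library does not depend on how libraries are scaled. Both ratios given first use the same miR-365-3p count, the single entry for an arm that Mir365-1 and Mir365-2 share. Neither can be read as a ratio of a single locus, and they are not independent of each other. How reads that match both hairpins were counted is not known. The sham libraries held 21.6 to 46.6 reads of miR-365-3p per read of miR-193a-3p, with a median of 30.5. The pMCAO libraries held 14.8, 5.63, 6.39, 7.96 and 12.2. Every pMCAO ratio was below every sham ratio, and the mean log2 ratio differed by -1.81 ± 0.30 (SE), a 3.50-fold lower ratio. Against miR-193b-3p, the sham libraries held 1.66 to 2.43 reads of miR-365-3p per read of miR-193b-3p, with a median of 2.08. The pMCAO libraries held 1.32, 0.705, 1.13, 1.57 and 0.681. Here too the groups did not overlap, though the highest pMCAO ratio and the lowest sham ratio were close, and the log2 ratio differed by -0.98 ± 0.26, 1.97-fold lower.

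Between the paralogs, miR-193a-3p made up 6.21 ± 1.03% (SD, n = 6) of miR-193-3p reads in sham and 11.2 ± 4.67% (n = 5) in pMCAO, with 8.19, 11.1, 15.04, 16.5 and 5.28% in replicates 1 to 5. Replicates 1 to 4 exceeded the highest sham share of 7.32% and replicate 5 did not, so the groups overlapped. The log2 ratio of miR-193a-3p to miR-193b-3p differed by 0.83 ± 0.35. Added together, the 2 RNAs with this seed came to 362 ± 60.5 CPM in sham and 454 ± 208 CPM in pMCAO, a difference within the pMCAO spread. Of the 3 pairs among the members that passed the filter, 2 had ratios that did not overlap between groups, as did 6.29% of all 114481 pairs of tested names. These ratios come from the same libraries and contrast with which the members were proposed, and are given as a description.

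**Figure D4:**
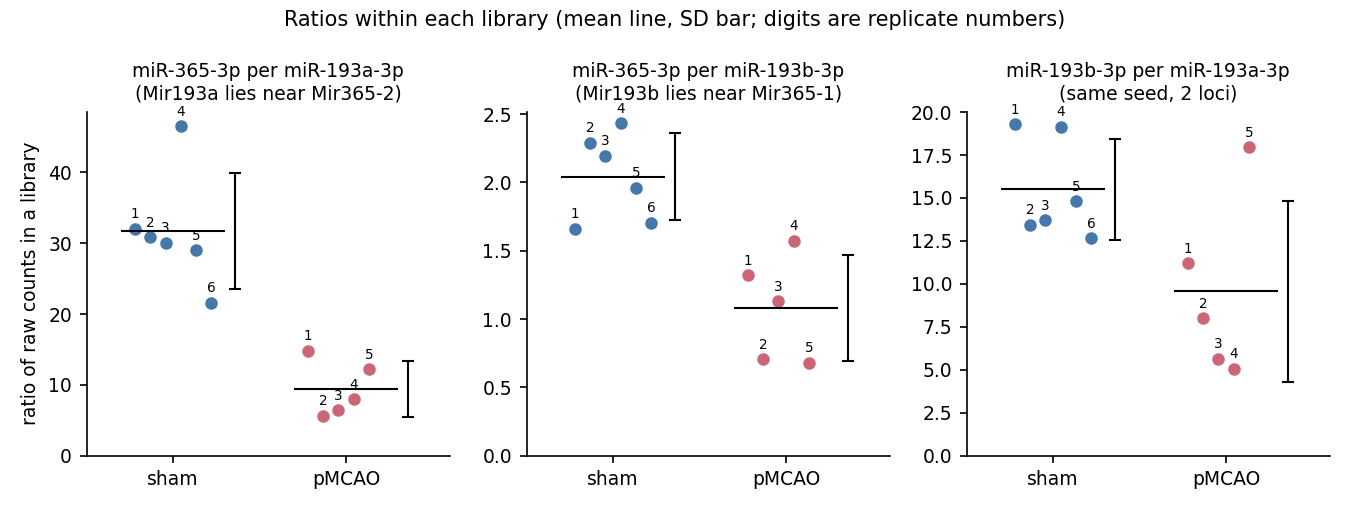
Ratio of raw counts within each library (y axis, linear from 0) for the single miR-365-3p entry against each miR-193 paralog and for the paralogs, by group, with mean lines, SD bars and replicate numbers. Both ratios with miR-365-3p are lower in every pMCAO library than in every sham library, while pMCAO replicate 5, at 17.9 reads of miR-193b-3p per read of miR-193a-3p, lies inside the sham range of 12.7 to 19.3.

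The other arms were rare. MiR-193a-5p, the less abundant arm of Mir193a, had 4 to 21 counts in sham with a median of 6, and 5, 8, 3, 13 and 9 counts in pMCAO. The groups overlapped, and sham replicate 2 alone held 21 counts. The arm made up 16.5 ± 8.44% of the Mir193a reads in sham and 13.3 ± 6.49% in pMCAO, and the log2 ratio of 5p to 3p differed by -0.42 ± 0.49. Without sham replicate 2 it was -0.14 and without pMCAO replicate 3 it was -0.10. A shift in arm usage was not detectable at this depth. MiR-193b-5p, which is no member but comes from Mir193b, passed the filter with 3 to 21 counts in sham and 4 to 12 in pMCAO and had a log2 fold change of -0.45 ± 0.38.

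The arms that would separate the miR-365 loci were barely sampled. MiR-365-1-5p, from chromosome 16, had 1 count in sham replicates 3, 5 and 6 and in pMCAO replicate 4, and 0 in the other 7 libraries. MiR-365-2-5p, from chromosome 11, had 1 count in pMCAO replicates 1, 2 and 3 and 0 in the other 8. A count of 0 allows up to 3 counts in a library, so no difference between groups or loci was detectable at this depth and no ratio to the neighbour was formed. The share of miR-365-3p that each locus gave is thus unknown in both groups.

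Whether neighbours vary together was also asked inside the sham group, whose spread is independent of the pMCAO contrast. Over the 6 sham libraries Pearson's r of log2(CPM + 1) was 0.69 for miR-193b-3p with miR-365-3p (two-sided exact permutation p = 0.124, adjusted 0.317 over 3 pairs), with Spearman's rho of 0.60 (exact permutation p = 0.242, adjusted 0.446). For miR-193a-3p with miR-365-3p r was 0.36 (exact permutation p = 0.481, adjusted 0.481) and rho 0.54 (p = 0.297, adjusted 0.446). For the paralogs r was 0.58 (exact permutation p = 0.211, adjusted 0.317) and rho 0.37 (p = 0.497, adjusted 0.497). All 3 were positive and none passed the threshold. The median sham r was 0.12 over tested pairs with hairpins within 10 kb, 0.15 within 50 kb and 0.006 over all pairs. Scaling by total counts alone gave r of 0.75, 0.48 and 0.70 for the 3 pairs in the order above. Single libraries moved them: leaving out each sham library gave 0.53 to 0.79 for miR-193b-3p with miR-365-3p, 0.17 (without replicate 5) to 0.79 (without replicate 4) for miR-193a-3p with miR-365-3p, and 0.27 (without replicate 6) to 0.74 (without replicate 4) for the paralogs. For miR-193a-3p with miR-365-3p, r was also 0.21 without replicate 1 and 0.61 without replicate 6. Without the 2 libraries farthest from the median of the first-named RNA, r was 0.55, 0.51 and 0.48 in the same order, over 4 libraries. With each library set against its own group mean, r over 11 libraries was 0.63, 0.46 and 0.44, values that share library depth and scaling and carry no test.

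By the same centred measure the 479 tested names were ordered by likeness to each of the 3 members. The names listed first are the highest of many, so nothing about neighbours is read from their higher r. MiR-193a-3p varied most like miR-339-5p (r = 0.86), miR-92a-3p (0.85) and miR-455-3p (0.81), with miR-365-3p in place 65 and miR-193b-3p in place 79. MiR-193b-3p varied most like miR-378a-3p (0.90), which is encoded in the gene for the metabolic coactivator PGC-1β, miR-383-5p (0.88) and miR-138-1-3p (0.85), with miR-365-3p in place 31. MiR-365-3p varied most like miR-92b-3p (0.85), miR-7044-3p (0.84) and miR-5121 (0.83), with miR-193b-3p in place 28 and miR-193a-3p in place 75. These are correlations over 11 libraries that share depth and scaling, given as a description.

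To place the members among other neighbours, the difference between log2 fold changes was taken for each pair of tested miRNAs whose hairpins lie on the same strand. Hairpins were found for 390 of the 479 names, and a name with several hairpins, such as miR-365-3p, has a single fold change for all of them. The median absolute difference was 0.17 over 789 pairs within 10 kb (178 miRNAs), 0.18 over 1682 pairs within 50 kb (199 miRNAs) and 0.31 over all 114481 pairs. MiR-365-3p and miR-193b-3p, within 10 kb, differed by 1.05. Only the pairs of miR-16-5p with miR-15b-3p (1.25) and miR-15b-5p (1.23) were as far apart or farther among the 789. MiR-365-3p and miR-193a-3p differed by 1.85, farther apart than any other of the 1682 pairs within 50 kb. Of all 114481 pairs, 9.86% were at least as far apart as the 1.05 pair and 3.57% as the 1.85 pair. The members were proposed with this contrast known, so nothing about them is read from these places. Both miRNAs were called in 11 of the 1682 pairs, with opposite directions only for miR-365-3p and miR-193a-3p. Over all 114481 pairs both were called in 561, with opposite directions in 273. The 2 calls behind this pair never held together when a library was left out, where 0 to 1 members were called. Ratios that did not overlap between groups occurred in 7 of 789 pairs (0.887%) and 30 of 1682 (1.78%).

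Most of these pairs lie on chromosome 12, which holds a large imprinted miRNA cluster. With names from chromosome 12 left out there were 138 pairs within 10 kb with a median difference of 0.23, and 159 within 50 kb, also 0.23. The 4 pairs that differed by at least 1 within 50 kb all included a mature name encoded by more than 1 hairpin, miR-365-3p or miR-16-5p. Such a name occurred in 51 of the 1682 pairs (median difference 0.29), and the other 1631 pairs, with 1 hairpin behind each name, had a median of 0.18 and a highest difference of 0.98. This grouping by number of hairpins was made after the values were seen. Pairs share miRNAs and clusters, so the counts are a description of these libraries.

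**Figure D5:**
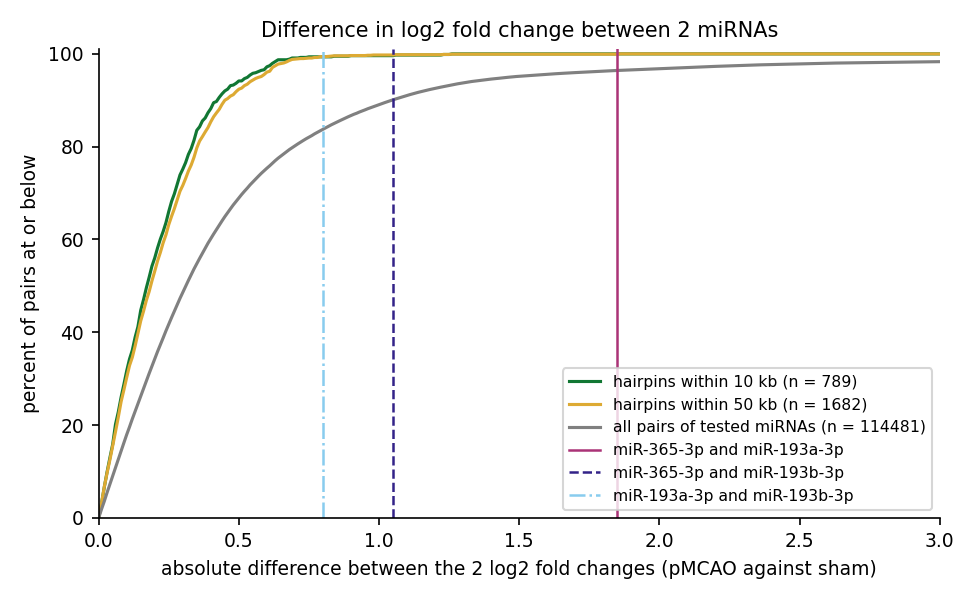
Percent of pairs (y axis) whose log2 fold changes differ by no more than the value on the x axis, for hairpins within 10 kb, within 50 kb and for all pairs of tested miRNAs, with the x axis ending at 3. Vertical lines mark the members' pairs at 1.85, 1.05 and 0.80, to the right of nearly all neighbouring pairs. Of all pairs of tested miRNAs, 3.57%, 9.86% and 16.3% were at least as far apart, in this order. The 0.80 pair, the paralogs, lies on 2 chromosomes.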

How the data were processed

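Small RNA of 11 brain samples (6 sham, 5 pMCAO) was enriched with the miRVana kit and sequenced on an Ion Torrent. The authors limited reads to 20 to 30 bp, aligned to mm10 by Bowtie and used HTSeq with miRBase 21 for counting. Settings, including the handling of reads that match several places, are not given in the sources used here, and this decides how miR-365-3p reads from 2 hairpins were counted. The deposited tables hold raw counts for 1907 mature names, and reads outside miRNAs are not in the totals. Groups followed the labels.

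Counts were fitted with edgeR 4.0.16 in R 4.3.3 (filterByExpr with a minimum count of 10, TMM factors, quasi-likelihood test, Benjamini-Hochberg threshold 0.05) over all names and 11 libraries. The SE is the fold change over the square root of F. Ratios used log2 counts with 0.5 added. Sham correlations used log2(CPM + 1) and exact permutation over 720 arrangements in numpy 2.4.6, with the ranks for Spearman's rho from scipy 1.17.1. Neighbours were hairpins on the same strand within 10 kb, or 50 kb as an alternative. The scripts were tested on simulated data. Named genes were the 6 members, other arms of their hairpins, miRNAs with their seeds, the 3 miRNAs most like each tested member and the marker lists. Members, lists and tests were chosen with earlier results of these data known. Alternatives were other normalizations, filters and tools (DESeq2 1.42.0), a replicate block and leaving out each library. The floor of 3 counts covers counting error only, while the SDs and SEs include the spread between libraries. The permutation p-values give the share of pairings of the sham values with an r at least as far from 0.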

Additional observations from a re-analysis of the deposited data

Results flagged for a closer look

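Of 24 groups of values checked with Dixon's test at the 95% level, 5 had a library far from the rest. Chance would give about 1 in 20, or 1.2 here, if the groups were independent and normal. They are not: 2 flags rest on the same 21 counts, and 1 count among zeros is always flagged. The 5 are therefore not read as an excess. On the log2(CPM + 1) scale, miR-193a-5p was highest in sham replicate 2 at 3.52, a library with 21 counts where the other sham libraries had 4 to 6. The log2 ratio of miR-193a-5p to miR-193a-3p was also highest there, at -0.98. The same library had the highest log2 total count of the sham group, 21.1, from 2319810 counts. MiR-193b-5p was lowest in sham replicate 5 at 1.67 on the log2(CPM + 1) scale, from 3 counts. MiR-365-1-5p was highest in pMCAO replicate 4 at 0.81 on that scale, which is 1 count against 0 in the other 4 libraries.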

How the results depend on the processing

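No alternative turned the direction of a member's fold change or of a ratio. Over the normalization, filter and tool alternatives and the replicate block, the log2 fold change ran from 1.03 to 1.23 for miR-193a-3p (called in 8 of 8), from -0.83 to -0.62 for miR-365-3p (called in 5 of 8) and from 0.21 to 0.44 for miR-193b-3p (called in 0 of 8). Members called fell from 2 to 1 with total counts alone, with at least 10 counts in every library and with the replicate block. Total counts alone moved the median of all names to 0.18 and gave 43 names higher and 1 lower. Names called lower fell from 13 to 4 with upper-quartile factors, 8 with no filter and 3 with at least 10 counts. Leaving out each library gave 13 to 27 names higher, 2 to 13 lower and 0 to 1 members called, with log2 ratios of -1.998 to -1.65 for miR-365-3p to miR-193a-3p, -1.13 to -0.83 for miR-365-3p to miR-193b-3p, 0.64 to 1.10 for the paralogs and -0.62 to -0.10 for miR-193a-5p to miR-193a-3p. The replicate block, which uses replicates 1 to 5, gave 17 higher and 2 lower. Deviations of same-numbered libraries correlated at -0.08 to 0.23, over 0.1 in 3 of 5 pairs, against -0.25 to 0.23 and 6 of 25 for different numbers, and not every library correlated best with its own number. With 5 same-numbered pairs and no test, these values do not settle whether libraries of the same number were related. No source used here says what the numbers mark. The main fit used no pairing, and the replicate block is given as an alternative. The cause of these moves was not tested. Ratios of summed counts and 1 pair per pair of hairpins, both chosen after seeing the data, gave -1.85 and -1.06 for the neighbour ratios and a median neighbour difference of 0.17. Counts of 0 or 1 limit what miR-365-1-5p and miR-365-2-5p can show.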
